A study of Mus musculus with 4 samples.

Results

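Fc receptors bind the constant end of antibodies and so let blood cells respond to what an antibody has marked. The genes described here are 5 mouse genes: Fcgr1, Fcgr2b, Fcgr3 and Fcgr4, which encode the receptors for IgG, and Fcer1g, which encodes the common gamma chain. They were found by symbol, as every probe set that the platform annotation assigns to 1 of these genes and to no other. This gave 10 probe sets of 34945 with a single symbol, for 5 genes of 18193. Fcgr2b had 5 probe sets, Fcgr1 had 2, and the other genes had 1 each.

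Signals came from 4 single-colour Affymetrix arrays, 1 for each population of mouse bone marrow cells: granulocytes, hematopoietic progenitor cells (HPC), stem cells with long-term repopulating ability (LT-HSC) and stem cells with short-term ability (ST-HSC). Granulocytes were sorted by high granularity and strong Gr-1. The other populations were enriched for c-Kit and cleared of cells carrying the lineage antigens Ter119, Gr-1, CD11b and B220 or the T-cell antigens CD3, CD4 and CD8. HPC were the Sca-1 negative fraction (LKS-), LT-HSC the Sca-1 positive CD34- fraction and ST-HSC the Sca-1 positive CD34+ fraction. No strain, age or genotype is given in the sources used here. The populations had served as nuclear donors, and the arrays asked whether each had the profile of its cell type. Each array rests on RNA of 50 to 200 cells after 2 rounds of linear amplification, and with 1 array per population no difference has a replicate check and no p-value is given.

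Fcgr1, Fcgr3 and Fcgr4 are activating receptors. Their ligand-binding chains do not signal alone but pair with the gamma chain, whose ITAM is phosphorylated when receptors are clustered and recruits the kinase Syk. The gamma chain also holds these receptors at the cell surface. Fcgr2b is the inhibitory member, which carries its own ITIM and recruits the phosphatase SHIP1. In the marrow an antibody against the products of Fcgr2b and Fcgr3 (CD32 and CD16) is commonly used, together with CD34, to divide the lineage-negative, c-Kit positive, Sca-1 negative cells into myeloid and erythroid progenitors. The labels do not list it among the antibodies of these sorts.

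A signal is the linear intensity of a probe set, and values under the floor of 120.1, the median of all values, were treated as unmeasured. A fold with 1 side under the floor is a lower bound, written with "at least", and pairs of values both under the floor get no fold. The highest of 27 Bacillus control probe sets read 138 on the granulocyte array and 52.5 to 90.3 on the others, so signals just above the floor are close to what unrelated sequences gave. Each array had the same trimmed mean of 500.00, while the hybridization controls averaged 5659 on the granulocyte array, against 3653 to 4325 on the others. The ratio of 3′ to 5′ signal of Actb, a measure of how far amplification reached, was 5.75 in granulocytes, against 12.2 in HPC, while LT-HSC had 14.6 and ST-HSC 16.1. The same ratio of Gapdh did not set granulocytes apart, at 12.4 in granulocytes, against 17.8 in HPC, while LT-HSC had 14.9 and ST-HSC 12.4. The part of these differences between arrays in the folds below was not tested. In such bulk samples fewer cells of a type and less RNA per cell cannot be told apart.

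The labels were checked against marker genes. All 10 neutrophil markers were higher in granulocytes by 4-fold or more, against 2.79% of all genes. The LT-HSC array stood apart from its label in carrying transcripts of neutrophils and of early B cells. Ltf, a granule protein, read 2502 in LT-HSC and 18.4 in ST-HSC, and Vpreb1, a part of the pre-B cell receptor, read 4815 in LT-HSC and 15 in ST-HSC. HPC also had 2532 for Vpreb1. Thawed cells had been packed into emptied zonae pellucidae, and 7 oocyte and cumulus markers were examined. Zp3 and Bmp15 were under the floor on each array, while Gdf9 had 504 in granulocytes, with 243 in LT-HSC, 170 in HPC and a value under the floor in ST-HSC. Zp2 (175), Has2 (333) and Inhba (6566) were above it in granulocytes. The summed signal of the 7 was 7687 in granulocytes, most of it Inhba, against 490 in HPC, while LT-HSC had 1023 and ST-HSC 450.1. Inhba had 459 in LT-HSC and values under the floor in HPC and ST-HSC. The part of oocyte and cumulus cells in the signals was not tested. Counts at 4-fold in the granulocyte and HPC comparisons were also made without the LT-HSC array, because of the transcripts it carried. Where such a count of members or listed genes given below differed, both are given. Percentages of all genes are those with all 4 arrays. The search for like genes below was not repeated without the LT-HSC array.

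The promoter sequences of the 3 genes with the highest granulocyte excess, and of Fcgr1 for contrast, are shown first, so that their start regions can be compared. All 5 genes were found in RefSeq's promoter table (GRCm38.p6). Each window is the 250 bases before the annotated start, 5′ to 3′ on the gene's own strand, and for Fcgr3, which has 2 listed starts, the first was used. Capitals mark every match on either strand to GAGGAA, a sequence of the kind bound by the myeloid factor PU.1, and to TTGCNNAA, of the kind bound by C/EBP factors.
Fcgr3, chr1:171059404-171059653, - strand: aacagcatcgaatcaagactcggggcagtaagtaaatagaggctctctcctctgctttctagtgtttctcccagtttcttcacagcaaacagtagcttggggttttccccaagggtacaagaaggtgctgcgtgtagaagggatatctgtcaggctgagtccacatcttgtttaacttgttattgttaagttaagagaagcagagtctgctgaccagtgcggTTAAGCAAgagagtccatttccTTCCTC
Fcgr4, chr1:171018676-171018925, + strand: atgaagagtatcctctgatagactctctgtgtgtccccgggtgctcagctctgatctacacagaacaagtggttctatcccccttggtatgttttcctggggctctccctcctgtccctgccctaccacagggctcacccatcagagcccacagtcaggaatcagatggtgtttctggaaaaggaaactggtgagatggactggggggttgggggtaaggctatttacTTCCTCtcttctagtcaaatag
Fcer1g, chr1:171234350-171234599, - strand: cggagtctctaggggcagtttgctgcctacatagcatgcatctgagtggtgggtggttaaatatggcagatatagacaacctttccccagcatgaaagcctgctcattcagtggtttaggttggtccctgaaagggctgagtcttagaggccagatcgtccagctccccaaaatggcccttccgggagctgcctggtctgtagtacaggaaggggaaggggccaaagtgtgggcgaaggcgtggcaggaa
Fcgr1, chr3:96293970-96294219, - strand: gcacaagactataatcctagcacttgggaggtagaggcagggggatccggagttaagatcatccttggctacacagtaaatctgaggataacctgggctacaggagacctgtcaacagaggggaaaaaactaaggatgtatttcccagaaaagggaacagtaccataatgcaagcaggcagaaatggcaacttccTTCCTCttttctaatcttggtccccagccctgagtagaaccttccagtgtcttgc

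GAGGAA was present, as TTCCTC on the gene's strand, 6 to 1 bases before the start of Fcgr3, 22 to 17 bases before that of Fcgr4 and 55 to 50 bases before that of Fcgr1. TTGCNNAA was present in Fcgr3, as TTAAGCAA, 28 to 21 bases before the start. No match overlapped another. Neither Fcer1g nor Fcgr2b held any of these letters in this window. Of 32851 such windows, 23.3% held GAGGAA and 9.56% TTGCNNAA. Fcgr3 and Fcgr4 held GAGGAA and had the granulocyte excess described below. Fcgr1 held GAGGAA without such an excess, and Fcer1g had one with neither motif. Fcgr2b held no match and was not counted as higher in granulocytes. Binding to these letters, or to other forms of the sites, was not tested.

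Granulocytes were compared with each of the other arrays to ask which Fc receptor genes mark the mature donor cells. Both the gamma chain and the activating receptors Fcgr3 and Fcgr4 were far higher in granulocytes, whereas the inhibitory receptor Fcgr2b was as bright in HPC and Fcgr1 was close to the floor everywhere. Of the 5 genes, 3 were higher by 4-fold or more in granulocytes than on each other array, against 2.79% of all genes, and 0 were lower by as much, against 5.22% of all genes. The same 3 genes, Fcer1g, Fcgr3 and Fcgr4, were counted with the LT-HSC array left out. Over all genes, 603 were then higher and 1144 lower, against 507 and 949 with it. Of 11 monocyte and macrophage markers, which could accompany these receptors, 1 was higher in granulocytes by as much, Cd14. At 2-fold, 3 were higher, Cd14, Adgre1 and Cd68, and 1 was lower, Irf8, against 8.72% and 12.6% of all genes. Ly86 had 552.5 in granulocytes and 4155 in HPC, while Csf1r had 13089 and 11928. The summed signal of the 11 markers was 48343 in granulocytes, against 39931 in HPC, while LT-HSC had 9172 and ST-HSC 8012. Cd14 made up 26441 of the granulocyte sum and 1768 of the HPC sum, so the order of these sums rests on this gene. Their part in the receptor signals was not tested.

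Fcer1g, the signalling chain, had a signal of 14155 in granulocytes, against 1088 in HPC, while LT-HSC had 277.5 and ST-HSC 308. All 4 values lay above the floor, in the order granulocytes, HPC and then both stem cell arrays close together. The gene was 13-fold higher in granulocytes than in HPC, 51.0-fold higher than in LT-HSC and 46.0-fold higher than in ST-HSC. Its smallest log2 difference of 3.70 was exceeded by 139 genes.

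Fcgr3, the receptor known as CD16, had 17944 in granulocytes, against 2163 in HPC, while LT-HSC had 124 and ST-HSC 51.9. Granulocytes and HPC were the populations with a clear signal, LT-HSC was at the floor and ST-HSC under it. The gene was 8.30-fold higher in granulocytes than in HPC, 144-fold higher than in LT-HSC and at least 149-fold higher than in ST-HSC. Its smallest log2 difference, 3.05, was set by HPC, and 224 genes exceeded it.

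Fcgr4, a receptor for IgG2a and IgG2b, had 10038 in granulocytes, against 116 in HPC, while LT-HSC had 91.8 and ST-HSC 105. It was measured in granulocytes alone, and the other values were all under the floor. The gene was at least 83.6-fold higher in granulocytes than on each other array, and 16 genes had a larger smallest difference.

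Fcgr2b, the inhibitory receptor, was measured by probe sets that gave different pictures. The one that represents the gene, 1435476_a_at, had 1720 in granulocytes, against 1707 in HPC, while LT-HSC had 1199 and ST-HSC 804. Granulocytes were thus 1.01-fold above HPC, 1.43-fold above LT-HSC and 2.14-fold above ST-HSC. The probe set 1435477_s_at had 2419 in granulocytes, against 2342 in HPC, while LT-HSC had 310 and ST-HSC 242, which placed granulocytes 1.03-fold above HPC but 7.79-fold above LT-HSC and a log2 difference of 3.32 above ST-HSC. The probe set 1455332_x_at had 633 in granulocytes and 738 in HPC, with 112 in LT-HSC and 130 in ST-HSC. The probe set 1451941_a_at had 208 in granulocytes and 448 in HPC, with 106 in LT-HSC and 66.8 in ST-HSC. In both, HPC was the highest. The last one, 1447622_at, was under the floor on every array, at 2.3 to 39.4. The 4 probe sets above the floor agreed that granulocytes and HPC lay above both stem cell arrays, while granulocytes and HPC were ordered either way, with log2 differences from -1.11 to 0.05.

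By the manufacturer's naming, a probe set with the suffix _s_at can bind transcripts of several genes and some probes of an _x_at set can bind other transcripts, and Fcgr2b and Fcgr3 are known to be alike in their extracellular part. Fcgr3 was 8.30-fold higher in granulocytes than in HPC, against 1.03-fold for 1435477_s_at, while 1455332_x_at read 633 in granulocytes and 738 in HPC. The part of Fcgr3 transcripts in these signals was not tested.

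Fcgr1, the high-affinity receptor known as CD64, was near or under the floor by both probe sets. Its probe set 1436625_at had 183 in granulocytes, against 218 in HPC, while LT-HSC had 149 and ST-HSC 256, all not far above the floor. The other, 1417876_at, had 36.2 in granulocytes and 14.1 to 29.2 elsewhere, all under the floor. Neither probe set separated granulocytes from the other populations.

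**Figure D1:**
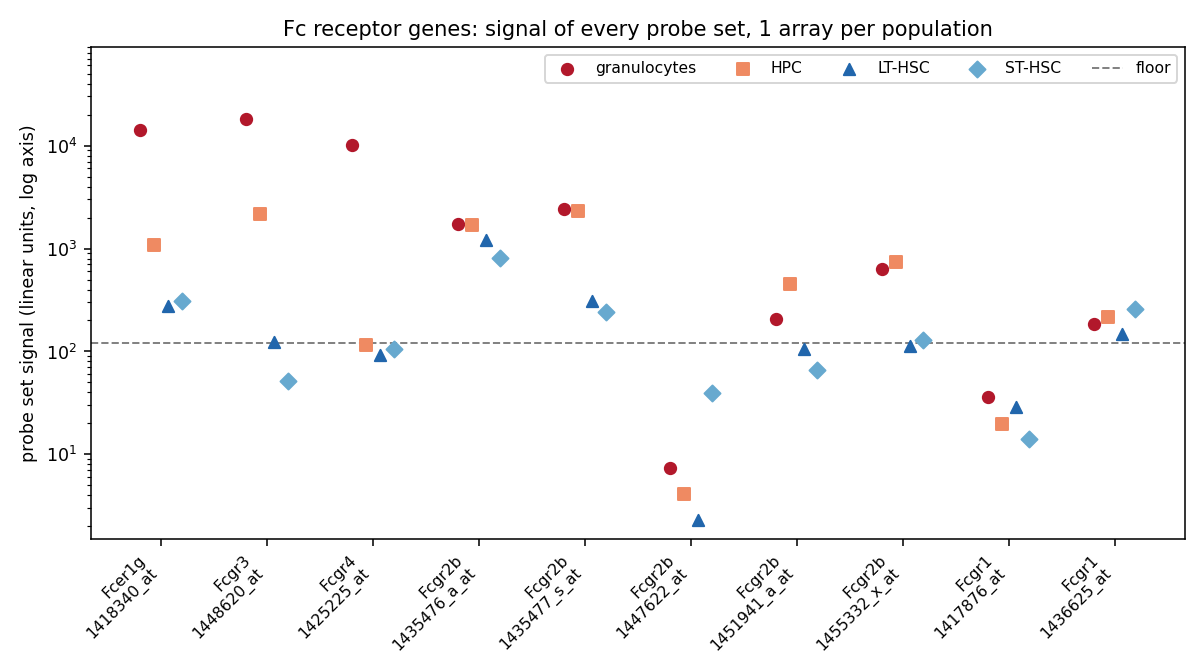
Signal of every probe set of the 5 Fc receptor genes on the 4 arrays, with linear units on a log axis, 1 point per array and the floor of 120.1 as a dashed line. Fcer1g, Fcgr3 and Fcgr4 were at 10038 to 17944 in granulocytes and lower elsewhere, while the Fcgr2b probe sets above the floor had HPC close to or above granulocytes.

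The yardstick of error was the spread of log2 differences between probe sets of the same gene, over 2874 genes with several probe sets above the floor on all arrays. Its SD was 0.85 for granulocytes against the mean of the other arrays, 0.54 for HPC against the mean of both stem cell arrays and 0.61 for LT-HSC against ST-HSC. The log2 differences of Fcer1g, Fcgr3 and Fcgr4 in the granulocyte comparison, 4.97, at least 5.82 and at least 6.39 against the mean, were several times that SD. Those of Fcgr2b by its representative probe set, 0.54, and Fcgr1, -0.15, were within it. Granulocytes minus HPC, LT-HSC and ST-HSC gave 0.05, 2.96 and 3.32 for the Fcgr2b probe set 1435477_s_at. The same differences were -0.22, at least 2.40 and 2.28 for 1455332_x_at, and -1.11, at least 0.79 and at least 0.79 for 1451941_a_at. The SD between probe sets for these pairs was 0.94, 0.91 and 0.92. These spreads rest on genes above the floor on all arrays, which Fcgr3 and Fcgr4 were not. They do not cover the variation between sorts or between amplifications.

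HPC were set against LT-HSC and ST-HSC, since CD16 and CD32 are surface markers used within this gate. Fcgr3 was the member that separated HPC most clearly, at 2163 in HPC, while LT-HSC had 124 and ST-HSC 51.9. This was 17.4-fold above LT-HSC and at least 18.0-fold above ST-HSC, and 3 genes of 18193 had a larger smallest difference. Fcer1g was 3.92-fold above LT-HSC and 3.54-fold above ST-HSC. Of the 5 genes, 1 was higher in HPC by 4-fold or more than in LT-HSC and in ST-HSC alike, against 0.275% of all genes, and 0 were lower by as much, against 0.33%. At 2-fold, 2 of the 5 were higher, Fcgr3 and Fcer1g, against 2.08% of all genes, and 0 were lower, against 2.63%. The 4-fold count of members was the same with the LT-HSC array left out. Over all genes, 197 were then higher and 186 lower, against 50 and 60 with the LT-HSC array. At 2-fold, Fcgr2b joined Fcgr3 and Fcer1g without that array, at a log2 difference of 1.09 from ST-HSC.

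For Fcgr2b the size of the HPC excess depended on the probe set. The representative 1435476_a_at was 1.42-fold above LT-HSC and 2.12-fold above ST-HSC. The probe set 1435477_s_at was 7.55-fold above LT-HSC and 9.68-fold above ST-HSC, and 1455332_x_at at least 6.14-fold and 5.67-fold above them. The probe set 1451941_a_at was at least 3.73-fold above both. The direction was the same in 4 of 4 probe sets above the floor, and the log2 difference from LT-HSC ranged over 2.41 units, against an SD of 0.60 between probe sets of 1 gene for this pair. With the median over its probe sets, Fcgr2b was among 2 members at least 4-fold higher, with a smallest log2 difference of 2.50. Fcgr4 was under the floor in HPC and in both stem cell arrays, and Fcgr1 differed from them in opposite directions.

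Markers of committed myeloid progenitors were higher in the same array. At 4-fold, 0.275% of all genes were higher in HPC than on each stem cell array and 0.33% were lower. Of 9 granulocyte-monocyte progenitor markers, 5 were at least 4-fold higher in HPC than on each stem cell array, with a summed signal of 88469 in HPC, while LT-HSC had 8069 and ST-HSC 25932. Ctsg, a granule protease, had 14683 in HPC, while LT-HSC had 188 and ST-HSC 671. Of 11 monocyte and macrophage markers, 3 were at least 4-fold higher, with a summed signal of 39931 in HPC, against 9172 and 8012 in LT-HSC and ST-HSC. Of these, Csf1r, which encodes the M-CSF receptor, had 11928 in HPC, while LT-HSC had 210 and ST-HSC 523. Csf1r and Irf8 (10505 in HPC) are in both lists, so the sums share them. Without the LT-HSC array the counts were 6 of 9 and 6 of 11, but the count over all genes rose too. It was 197 higher and 186 lower, against 50 and 60 with that array. Of 10 neutrophil markers, 3 were above the floor in HPC, Csf3r at 1017, Ngp at 170 and Mmp9 at 167. Of 7 basophil and mast cell markers, 1 was at least 4-fold higher, Mcpt8, at 1096 in HPC, while LT-HSC had 10.5 and ST-HSC 126, and 2 were so without the LT-HSC array (Cpa3 joined). Of 7 markers of megakaryocyte-erythroid progenitors, 0 were so, although Gata1 read 247 in HPC, and 1, Pf4, was at least 4-fold lower without the LT-HSC array. Of 7 B-lineage markers 0 were 4-fold higher in HPC, but 3 were without the LT-HSC array, Cd79b, Vpreb1 and Igll1. The part of any one kind of progenitor in the Fcgr3 and Fcer1g signals was not tested.

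**Figure D2:**
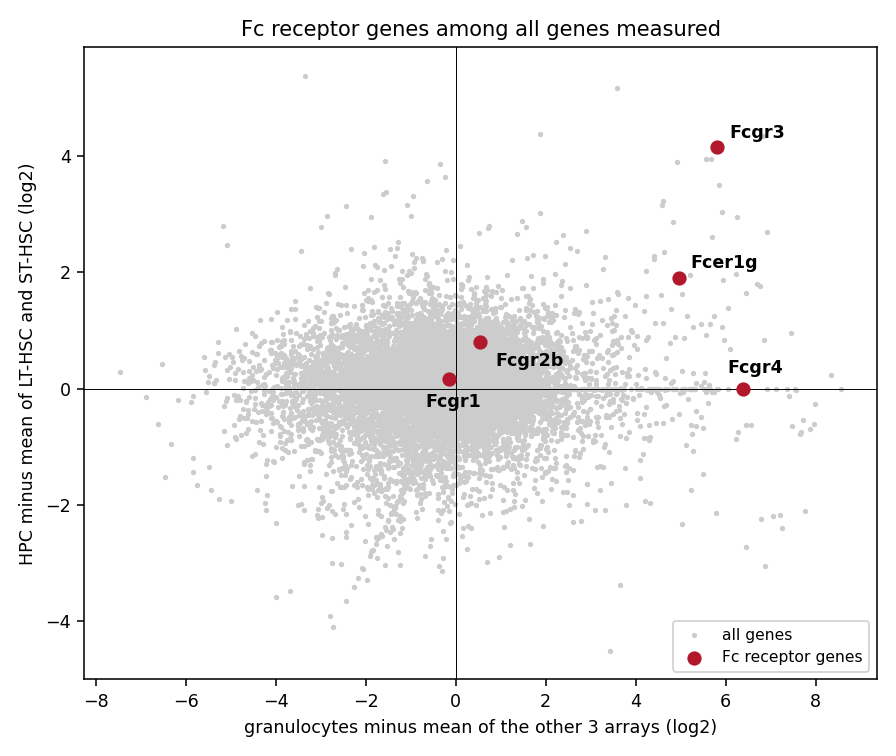
Log2 difference of granulocytes from the mean of the other 3 arrays (horizontal) and of HPC from the mean of both stem cell arrays (vertical) for 18193 genes in grey, with the Fc receptor genes in red. Fcgr3 lay high on both axes (at least 5.82 and at least 4.15, with ST-HSC under the floor) and Fcer1g at 4.97 and 1.90. Fcgr4 lay on the horizontal axis alone (at least 6.39, and 0), and Fcgr2b, by its representative probe set, and Fcgr1 near the centre.

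LT-HSC and ST-HSC were compared to ask whether the stem cell gates differ. At 4-fold, 0 of the 5 genes were higher in LT-HSC, against 1.19% of all genes, and 0 were lower, against 0.682%. At 2-fold the counts were also 0 and 0, against 7.05% and 5.33%. Fcer1g had 277.5 in LT-HSC and 308 in ST-HSC, a log2 difference of -0.15. Fcgr2b had 1199 in LT-HSC and 804 in ST-HSC by its representative probe set, a log2 difference of 0.58, which was within the SD of 0.61. Fcgr1, at 149 in LT-HSC and 256 in ST-HSC, had the largest difference of the 5, -0.78, which exceeded that SD, but its other probe set was under the floor on both arrays. Fcgr3 had 124 in LT-HSC, just above the floor, and 51.9 in ST-HSC. Without a floor that difference was 1.26 on the log2 scale.

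Fc receptor genes were set beside the neutrophil transcripts of the LT-HSC array. The 6 markers S100a8, S100a9, Ltf, Camp, Ngp and Lcn2 had 3.19% to 11.9% of their granulocyte signal in LT-HSC, from S100a9 at 3.19% to Ngp at 10.1% and S100a8 at 11.9%. In the same array Fcgr3 had 0.692% of its granulocyte signal and Fcgr4 0.915%, close to or under what the floor allows for them (0.669% and 1.20%). The late neutrophil genes Mmp8 and Mmp9 were under the floor there, at 0.170% and 0.135%. Fcer1g had 1.96% of its granulocyte signal in LT-HSC and 2.17% in ST-HSC. The marker Csf3r, which encodes the G-CSF receptor, had 3.24% in LT-HSC and 14.2% in ST-HSC, and 5.99% in HPC. Of the 10 neutrophil markers, 7 were above the floor in LT-HSC and 3 in ST-HSC. For Fcgr2b, which B cells also express, the B-lineage markers summed to 13813 in LT-HSC, 652.5 in ST-HSC, 6983 in HPC and 1456 in granulocytes, and their part in its stem cell signals was not tested.

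**Figure D3:**
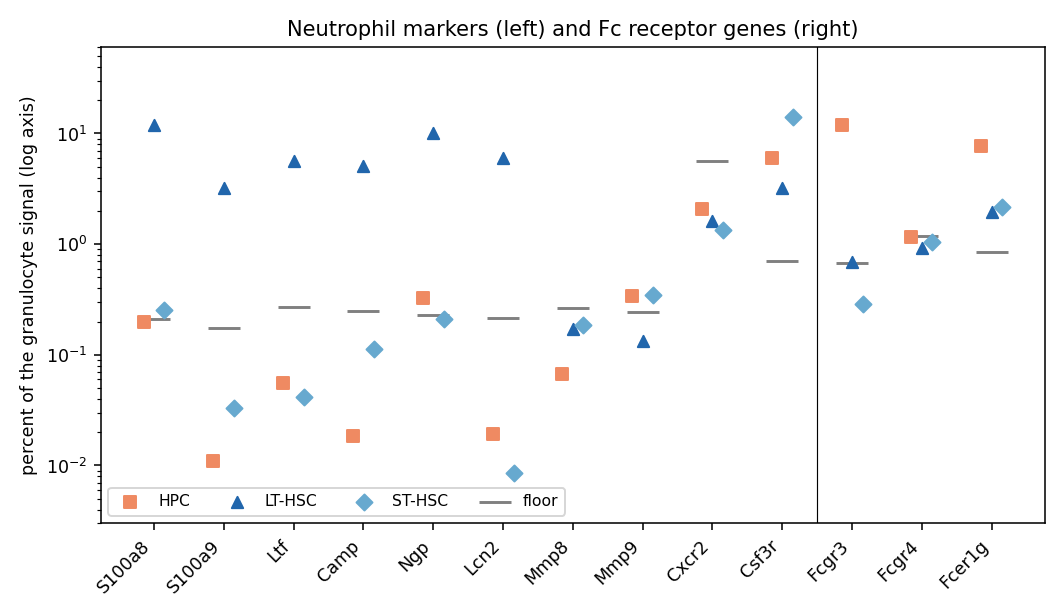
Signal in HPC, LT-HSC and ST-HSC as a percentage of the granulocyte signal of the same gene (log axis), for 10 neutrophil markers on the left and 3 Fc receptor genes on the right, with the floor as a grey bar. LT-HSC stood at 3.19% to 11.9% for S100a8, S100a9, Ltf, Camp, Ngp and Lcn2, but at 0.692% for Fcgr3 and 0.915% for Fcgr4.

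Other genes of the pathway were taken from 7 lists, beginning with receptors for other antibody classes and relatives. For the list counts below, 2.79% of all genes were higher in granulocytes by 4-fold or more and 5.22% lower. In the HPC comparison these shares were 0.275% and 0.33%, and between LT-HSC and ST-HSC 1.19% and 0.682%. Of 11 measured, 2 were higher in granulocytes by 4-fold or more and 0 were lower by as much. The median log2 difference was 0, equal to that of all genes. The 2 were Fcrl1, at 784 in granulocytes, against 39.8 in HPC, while LT-HSC had 51.7 and ST-HSC 70.2, and Fcrla, at 609 in granulocytes and 36.0 to 81.6 elsewhere. Both are known from B cells. Among 7 B-lineage markers, 3 were above the floor in granulocytes, Cd79b at 703, Pax5 at 255 and Ms4a1 at 220, while Vpreb1 was under it at 28.4. Pax5 and Ms4a1 had their highest signal there, whereas Cd79b had 1942 in HPC and 3562 in LT-HSC. At 4-fold, 0 of the 7 were higher in granulocytes and 0 lower. The part of B cells in the Fcrl1 and Fcrla signals was not tested. Fcer1a and Ms4a2, the other chains of the IgE receptor of mast cells and basophils that also uses the gamma chain, were at 48.6 and 7.1 in granulocytes, both under the floor. Fcgrt, which encodes the recycling receptor FcRn, varied little, with 684 in granulocytes and 352 to 577 elsewhere.

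Among adaptor chains with an ITAM or related motif, the myeloid adaptors Tyrobp and Hcst were higher in granulocytes. Of 8 measured, 3 were at least 4-fold higher in granulocytes and 0 lower (median log2 difference 0.05), against 2.79% and 5.22% of all genes. Tyrobp, the myeloid adaptor DAP12, had 30654 in granulocytes, against 4052 in HPC, while LT-HSC had 318 and ST-HSC 981, the same order of arrays as Fcer1g, with ST-HSC 3.08-fold above LT-HSC. Hcst, the adaptor DAP10, had 2257 in granulocytes and 209 to 273 elsewhere. The last was Cd3d, a chain of the T cell receptor complex, at 3890 in granulocytes, against 206 in HPC, while LT-HSC had 55.4 and ST-HSC 14.6. Its partners Cd3e and Cd3g read 152 and 25.6 in granulocytes. In the HPC comparison 1 of the 8 was 4-fold higher, Tyrobp, at 4.13-fold, and 2 were without the LT-HSC array, with Cd79b. Between the stem cell arrays 1 was higher in LT-HSC, the B-cell adaptor chain Cd79b, at 3562 in LT-HSC and 428 in ST-HSC.

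Receptors that use Fcer1g or Tyrobp as their adaptor were the list with the largest shift in granulocytes. Of 16 measured, 10 were at least 4-fold higher and 0 lower, against 2.79% and 5.22% of all genes. The median log2 difference was 4.57, against 0 over all genes. Pilrb1 was 152-fold higher, Sirpb1a at least 48.9-fold, Trem3 40.7-fold and Trem1, an amplifier of neutrophil responses, 38.1-fold. The Fcer1g-coupled lectins Clec4n (dectin-2), Clec4d and Clec4e (mincle) were at least 36.6-fold, 19.5-fold and 15.9-fold higher. In HPC, 2 of the 16 were at least 4-fold above both stem cell arrays, Clec4d at 1227 in HPC, while LT-HSC had 19.0 and ST-HSC 210, and Cd300lb at 2357 in HPC, with 84.3 in LT-HSC and 589 in ST-HSC, and 3 were, with Trem3, without the LT-HSC array. Between the stem cell arrays, 3 were lower in LT-HSC: Clec4e, at 11.8 in LT-HSC and 1155 in ST-HSC, Trem1, at 128 in LT-HSC and 563 in ST-HSC, and Cd300lb.

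The kinases and adaptors that act below ITAM receptors were mostly less than 4-fold apart. Of 24 measured, 1 was at least 4-fold higher in granulocytes and 2 were lower, against 2.79% and 5.22% of all genes. The median log2 difference was 0.15. The Src-family kinase gene Fgr was 21.0-fold higher, at 5849 in granulocytes and 153 to 279 elsewhere, and its relative Fyn was at least 10.5-fold lower, at 42.9 in granulocytes and 1258 to 1939 elsewhere. Plcg1, a phospholipase known mainly from T-cell signalling, was the other lower one, but its granulocyte signal of 121, against 2505 to 3612 elsewhere, lay within the range of the Bacillus controls and its other probe set had the opposite sign. Plcg2, its counterpart in myeloid and B cells, was above the floor throughout, at 21514 in granulocytes and 9921 to 12034 elsewhere. Syk, the kinase recruited by the gamma chain, had 8423 in granulocytes, against 3321 in HPC, while LT-HSC had 3966 and ST-HSC 3230. Blnk, the B-cell linker, was 13.6-fold higher in LT-HSC than in ST-HSC, and was the 1 gene of the list at least 4-fold higher in HPC without the LT-HSC array.

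Several inhibitory receptors were higher in granulocytes like the activating ones, while most inhibitory enzymes were less than 4-fold apart. Of 18 measured genes of this list, 5 were at least 4-fold higher in granulocytes and 1 was lower, against 2.79% and 5.22% of all genes. The median log2 difference was 1.02. The receptor genes Pirb, Cd300lf, Pilra and Sirpa were at least 50.1-fold, 38.3-fold, 34.7-fold and 4.84-fold higher, and Dok3, an adaptor that dampens signalling, 5.97-fold. Cblb, a ubiquitin ligase, was the lower one, at 136 in granulocytes, within the range of the Bacillus controls on that array, and 1854 to 3536 elsewhere. Inpp5d, which encodes the phosphatase SHIP1 that Fcgr2b recruits, had 3338 in granulocytes, against 2727 in HPC, while LT-HSC had 3217 and ST-HSC 1936, within 2-fold throughout. Ptpn6, the phosphatase SHP-1, had 7410 in granulocytes and 1879 to 3483 elsewhere.

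Genes of the actin machinery that closes a phagocytic cup differed by smaller factors. Of 23 measured, 3 were at least 4-fold higher (4 without the LT-HSC array) and 0 lower, against 2.79% and 5.22% of all genes. The median log2 difference was 1.29. At 2-fold 11 were higher and 1 was lower, where 8.72% and 12.6% of all genes were. Was, the Wiskott-Aldrich protein gene, was 8.02-fold higher, Gsn (gelsolin) 6.63-fold and the GTPase gene Rac2 5.91-fold. Of 11 complement receptors and partners, 4 were at least 4-fold higher and 0 lower (median log2 difference 1.35). Itgam and Itgb2, the chains of complement receptor 3, were at least 21.4-fold and 15.4-fold higher, C5ar1 at least 17.6-fold and Cd55 6.10-fold. Neither list had a member 4-fold apart in the other comparisons.

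**Figure D4:**
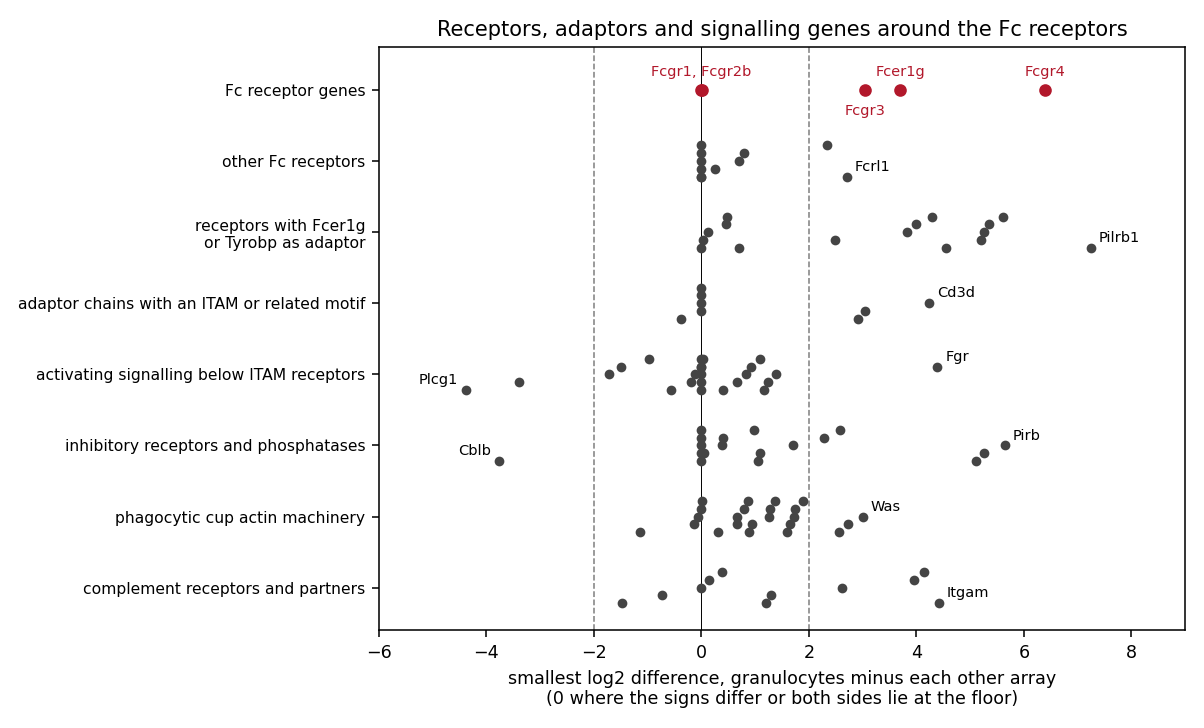
Smallest log2 difference of granulocytes from each other array for the 5 Fc receptor genes (top row, red) and the measured genes of 7 related lists (1 point per gene, spread vertically for clarity), with dashed lines at 4-fold. The receptors that use Fcer1g or Tyrobp hold 10 of 16 genes beyond the right line, the signalling genes below them 1 of 24. Of all genes 2.79% lie there.

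The genes whose signals ran most like each member over the 4 arrays were sought among 8854 genes reaching the 75th percentile of an array. The measure was the root mean square difference of centred log2 values, taken after values under the floor were raised to it. For Fcgr3 they were Acod1, which makes itaconate (0.11), Igsf6 (0.27) and Anxa3 (0.31). Acod1 had 15166 in granulocytes, against 1840 in HPC, while LT-HSC had 9.3 and ST-HSC 14.6. These stem cell values counted as the floor, as did the 51.9 of Fcgr3 in ST-HSC, so likeness under the floor was not measured. For Fcer1g they were Cd14, a coreceptor for lipopolysaccharide (0.14), Itgb2 (0.18) and Cass4 (0.23), and for Fcgr4 Cyp4f18 (0.14), Lrg1 (0.23) and Klra17 (0.24). Fcgr4, Cyp4f18, Lrg1 and Klra17 were under the floor on each array but granulocytes, so their likeness rests on the granulocyte signal alone. The genes closest to Fcgr2b, C1galt1 (0.05), Mrpl43 (0.06) and Tent5c (0.06), and to Fcgr1, Serf1, Yy1 and Pdhb (0.02 each), vary little between the arrays. Likeness over 4 arrays describes these arrays only.

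By position, Fcgr2b, Fcgr4, Fcgr3 and Fcer1g lie in this order on chromosome 1 in RefSeq, and Fcgr1 on chromosome 3. Fcgr2b, Fcgr4 and Fcgr3 are direct neighbours among protein-coding genes, and 7 genes separate Fcgr3 from Fcer1g, 6 of them measured. Of these and the 10 protein-coding genes on each side, 21 were measured. Of the 21, 2 were at least 4-fold higher in granulocytes and 0 lower, against 2.79% and 5.22% of all genes. The 2 were Fcrla and Olfml2b, with Olfml2b at 3168 in granulocytes and 28.1 to 35.9 elsewhere. None of the 6 between Fcgr3 and Fcer1g was, and Sdhc, a mitochondrial enzyme subunit gene among them, had 394 in granulocytes, against 514.5 in HPC, while LT-HSC had 452 and ST-HSC 464. In the HPC comparison 0 of the 21 were 4-fold apart, where 0.275% of all genes were higher and 0.33% lower. The granulocyte excess was thus not shared by the whole stretch, nor by Fcgr2b beside Fcgr4.

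**Figure D5:**
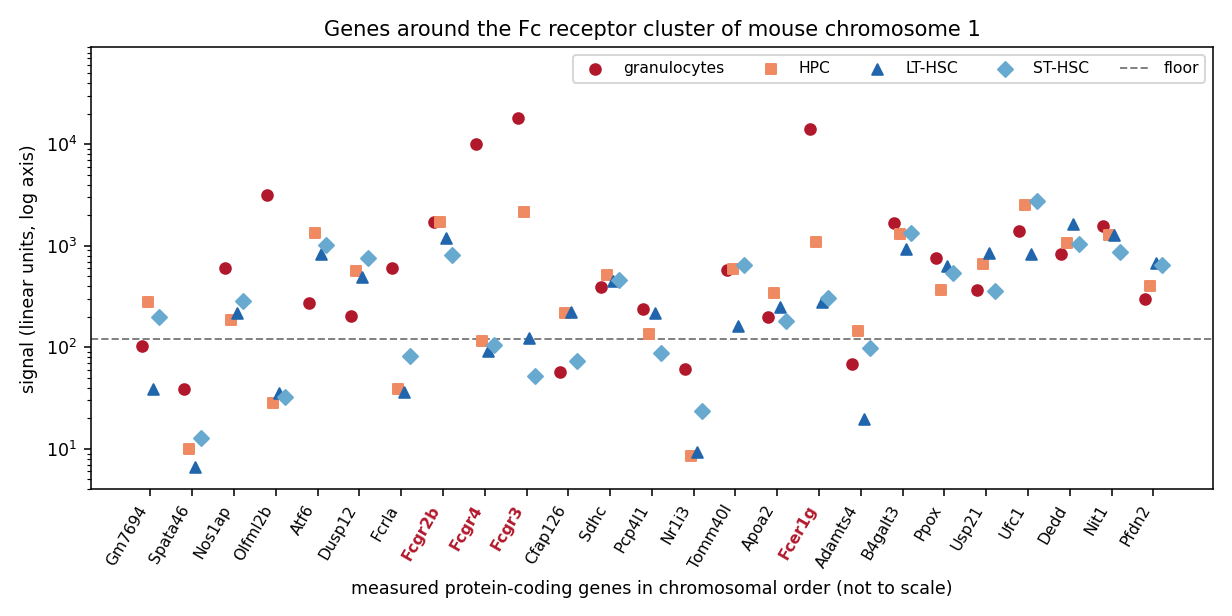
Signals (linear units on a log axis) of the measured protein-coding genes around the Fc receptor cluster in chromosomal order, not to scale, with members named in red and the floor of 120.1 dashed. Fcgr4, Fcgr3 and Fcer1g stand at 10038 to 17944 in granulocytes, with Olfml2b at 3168. Of 21 measured neighbours, 2 were higher in granulocytes by 4-fold or more, against 2.79% of all genes.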

How the data were processed

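Single-colour arrays of 4 mouse cell populations were used, 1 array each. Per the labels' protocols, the authors amplified total RNA in 2 rounds of linear amplification with aminoallyl labelling, and such amplification favours 3′ ends. The authors deposited 1 intensity per probe set, on a linear scale. How the probes were summarised is not given in the sources used here. As the trimmed mean (2%) of each array was the same, the values were used as deposited. The 64 control probe sets among 45101 stayed out. Platform annotation gave 1 symbol for 34945, several for 932 and none for 9160, and 34741 matched RefSeq (GRCm38.p6) by Entrez number, with 0 symbols updated.

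Values under the pooled median were raised to it before log2. Where a gene had several probe sets (9010 genes), the one highest in mean log2 signal stood for it. A gene was counted as higher or lower at 4-fold or more against each array of the other side, and its size is the smallest such log2 difference, or 0 where signs differed. No test was possible. Of the Fc receptor genes all probe sets are given. From each list the text names up to 4 genes per direction with the largest size in granulocytes, and those 4-fold apart elsewhere; Syk, Plcg2, Inpp5d, Ptpn6, Fcgrt, Fcer1a, Ms4a2, Cd3e, Cd3g, Clec4n, Sirpa, Olfml2b, Sdhc and the marker genes named were chosen after their values were seen. The members, lists and markers were chosen with earlier results of these data known. Of 123 list genes and 90 marker entries, those with no probe set of a single symbol were not analysed here. Alternatives were the floor, the scaling, the probe set, the threshold and, added after seeing the data, leaving out the LT-HSC array. The counting procedure was run on simulated data with independent noise, without variation between sorts or amplifications, so it gives no error rate for these arrays. Computation used Python 3.11.15 with pandas 2.3.3 and numpy 2.4.6, and figures matplotlib 3.10.9.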

Additional observations from a re-analysis of the deposited data

How the results depend on the processing

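The main count of Fc receptor genes at least 4-fold higher in granulocytes, 3, was obtained under all 12 alternatives. The 3 genes have 1 probe set each, without a suffix, so the alternatives in the choice of probe set could not lower this count. The smallest log2 difference ranged from 2.42 to 3.19 for Fcgr3 and from 3.07 to 3.84 for Fcer1g, lowest for both after scaling to the hybridization controls. For HPC the count was 1 except for 2 with that scaling (Fcer1g joined), with the median over probe sets (Fcgr2b joined) and at 2-fold. With the floor at the 75th percentile the log2 differences were 4.54 for Fcgr4 in granulocytes, 2.33 for Fcgr3 in HPC and 0 for Fcgr1 between LT-HSC and ST-HSC, which was also 0 with the first probe set by name. These follow from the higher floor and the dimmer probe set. Between LT-HSC and ST-HSC, Fcgr3 had 1.26 with the floor at the 25th percentile and with none. The median over probe sets gave Fcgr2b 2.50 in HPC and -0.12 between the stem cell arrays, and leaving out the LT-HSC array gave it 1.09 in HPC. No called value reversed.

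Counts over all genes moved more. In granulocytes, 507 genes were higher and 949 lower, against 834 and 1588 without a floor, 1587 and 2288 at 2-fold, 240 and 361 at 8-fold, and 342 and 1375 with the scaling to hybridization controls or 625 and 793 at a common 75th percentile; 401 were lower with the higher floor and 525 with the median over probe sets. In HPC, 50 were higher and 60 lower, against 25 and 11 with the higher floor, 129 and 192 with the lower one, 288 and 464 with none, 379 and 479 at 2-fold, 14 and 8 at 8-fold and 197 and 186 with the LT-HSC array left out, which removes a condition, and 33 were higher with the median over probe sets. In LT-HSC against ST-HSC, 217 were higher and 124 lower, against 63 and 30, 571 and 355, and 1103 and 1025 under those 3 floors, 1282 and 970 at 2-fold, 45 and 5 at 8-fold and 137 and 79 with the median over probe sets. Leaving out the LT-HSC array gave 603 genes higher and 1144 lower in granulocytes. Without a floor the median of all genes shifted by 0.15 in granulocytes and 0.12 in HPC on the log2 scale. No paired analysis was possible because each population has 1 array. Fcgr1 and the stem cell signals of Fcgr3 and Fcgr4 are limited by their closeness to the floor.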
